A study of Mus musculus with 9 samples.

Results

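The 3 arrays of Vehicle-treated mesenchyme, of 9 arrays in the series, give the state without added hedgehog ligand of embryonic mouse gut mesenchyme in culture. They were chosen by their title alone, and all 18193 genes measured on them were considered. Small intestine was taken from C57Bl/6J embryos at E18.5, late in gestation, and its epithelium was removed with a cell recovery solution. The remaining tissue was grown on a collagen matrix in serum-containing medium for 48 h and was exposed to Vehicle, labelled as the control agent, for 24 h. The 6 wells of this treatment were pooled at random into 3 samples, Vehicle 1 to 3, and biotin-labelled cRNA was made from 6 ug of total RNA. The arrays treated with the hedgehog ligands Shh and Ihh were not used here. The replicates are pools of wells, so the spread between them is that between pools. The labels do not say how many litters or embryos the wells came from, and the make-up of the vehicle is not given in the sources used here.

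Gut mesenchyme is the layer of fibroblasts, smooth muscle and their precursors beneath the epithelium. It lays down the matrix on which the epithelium rests and sends it growth factors, while the epithelium sends back hedgehog ligands that act on the mesenchyme through the receptors Ptch1 and Smo. Blood vessels, neural crest-derived enteric neurons and glia, and tissue macrophages lie within the same layer. Interferons are cytokines of antiviral defence, and a common set of genes is induced in most cell types that receive them.

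Array medians over all probe sets were 5.87, 5.89 and 5.88 log2, and the arrays correlated pairwise with Pearson's r of 0.9942 to 0.9966 over the probe sets (probe sets do not count as replicates). The difference between 3′ and 5′ control probe sets was 0.03, -0.08 and -0.05 log2 for Gapdh and 0.28, 0.15 and 0.19 for actin on Vehicle 1, 2 and 3, the order used for all values of single arrays. Several groups of genes set arrays apart. Vehicle 3 was lowest for all 35 interferon-stimulated genes measured, against 32.6% of all genes, Vehicle 1 was highest for 19 of 25 markers of gut epithelium, against 37.3% of all genes, and Vehicle 1 alone had a high level of Xist, the RNA that coats the inactive X chromosome of female cells (10.83, 6.34 and 6.48 log2). Arrays have no read depth, and 3 of them set the precision.

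Levels are log2 expression as mean ± SD over the arrays (n = 3), and the percentile is the gene's place among all 18193 genes on the array. The brightness of a probe set depends on its own probes, so levels and percentiles place genes only roughly against each other and do not rank transcripts. As a working mark for genes with no more signal than genes of another organ, the 95th percentile of 39 olfactory receptor genes was taken on each array, which lay at 5.18, 5.19 and 5.20 log2, near the 30th percentile. Of all genes, 68.7% (12491) lay above this mark on all 3 arrays. Photoreceptor and sperm genes, also foreign to gut, passed it in 3 of 18 cases, with the protamine Prm1 at 6.53 ± 0.15. Pancreas and liver genes passed it in 5 of 14, with Cela1 highest at 8.81 ± 0.15 (percentile 78.1). Passing the mark alone thus does not show expression.

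The brightest genes outside the ribosomal proteins were those of the cytoskeleton, protein synthesis, iron storage and matrix. Actb, cytoplasmic actin, was the brightest at 14.14 ± 0.02. It was followed by Tmsb10 (13.98 ± 0.02), a thymosin that binds actin monomers, Tpt1 (13.90 ± 0.01), the ferritin chain Fth1 (13.87 ± 0.01) and the elongation factor Eef1a1 (13.79 ± 0.00). The galectin Lgals1, the collagen chain Col3a1, the IGF-binding protein Igfbp5, the matrix protein Sparc and smooth muscle actin Acta2 were among the 20 brightest. So were lysozyme, read by the probe sets of Lyz1 (13.73 ± 0.03) and Lyz2 (13.17 ± 0.03), and the lysosomal protease Ctsl (13.10 ± 0.03). Lyz1, an enzyme of Paneth cells, and Lyz2, that of macrophages, are near-identical paralogs, so the Lyz1 value is uncertain and cannot be told apart from Lyz2 signal here.

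The label of mesenchyme was met by the data. Of 24 pan-mesenchymal and fibroblast markers 22 lay above the mark, with a median level of 10.13 log2 against 6.83 for all genes, and 15 were in the top quartile. Vim, the intermediate filament of mesenchymal cells, read 13.03, 13.08 and 13.06, at percentile 99.8. Pdgfra, the PDGF receptor of gut fibroblasts and their precursors, read 11.95, 11.90 and 11.79. Pdgfrb, that of perivascular and fibroblastic cells, read 11.29, 11.23 and 11.33. The arrays lay close together, with ranges of 0.05, 0.16 and 0.10 log2 for these 3 genes. Decorin (Dcn, 12.82 ± 0.06), periostin (Postn, 12.18 ± 0.17), the mesenchymal cadherin Cdh11 (10.80 ± 0.07) and the repressors Snai2 (10.98 ± 0.14) and Zeb2 (11.27 ± 0.06) were also bright. Twist1 was modest at 6.42 ± 0.07, and Mfap5 (5.01 ± 0.19) and Pi16 (4.90 ± 0.08), both marks of adventitial fibroblasts in adult tissue, did not lie above the mark.

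The transcription factors that pattern gut mesenchyme were uneven in level, with 15 of 21 above the mark and a median at percentile 53.7. Hand2 was the brightest at 11.01 ± 0.10. Foxf1, a forkhead factor of visceral mesenchyme, read 9.82, 9.83 and 9.81, and Nkx2-3, needed for villus and spleen development, read 9.09, 9.22 and 9.28. Foxf2 was at 7.33 ± 0.13. Barx1, a factor of stomach mesenchyme, was only just above the mark at 5.49 ± 0.16. Foxl1, a mark of telocytes under the epithelium, stood at 5.22 ± 0.19 and was not above it on Vehicle 1. The endoderm and mesoderm factor Gata6 was at 6.61 on Vehicle 1 and at 5.66 on both others, and Gata4 was at 4.64 ± 0.20.

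Smooth muscle genes lay above the mark in 22 of 23 cases, and 9 were in the top 5% of genes. Acta2 read 13.12, 13.24 and 13.27, Tagln, an actin-binding protein of smooth muscle, 12.28, 12.48 and 12.60, and the enteric actin Actg2 11.16, 11.48 and 11.46, all among these 9. Vehicle 1 was lowest for these 3 genes and for 15 of the 23 members, against 37.3% of all genes, with a mean deviation of the list of -0.09, 0.04 and 0.05 log2. The genes of mature smooth muscle stood lower, with the myosin Myh11 at 8.65 ± 0.20 (percentile 76.0), the intermediate filament Des at 6.96 ± 0.12 and the coactivator Myocd at 5.95 ± 0.03, the last in the range of the photoreceptor and sperm genes that passed. Of pericyte markers 7 of 9 lay above the mark, led by the potassium channel pair Kcnj8 (11.56 ± 0.20) and Abcc9 (10.76 ± 0.41) and by Rgs5 (10.51, 10.74 and 9.96), with Vehicle 3 lowest for all 3. Kit, the receptor of interstitial cells of Cajal, which pace gut contraction, read 9.50, 9.51 and 8.91, and the chloride channel Ano1 of the same cells 7.41, 7.07 and 6.85. Kit is also a mast cell gene. Of 11 mast cell markers 2 lay above the mark, Gata2 (7.34 ± 0.11) and Hdc (5.46 ± 0.11), and Mcpt2 read 6.04, 5.17 and 4.55, while the defining markers Cpa3 (4.18), Tpsb2 (4.75) and Ms4a2 (3.81) did not pass. The part of mast cells in the Kit value was not tested.

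Markers of several cell types other than mesenchyme mostly lay above the mark, as 68.7% of all genes did. In bulk RNA, fewer cells of a type and less RNA per cell cannot be told apart, so these levels give no share of cells. Endothelium markers lay above the mark in 18 of 20 cases, with Pecam1 at 9.52 ± 0.17, the vascular cadherin Cdh5 at 9.45 ± 0.17, the tight junction gene Cldn5 at 10.31 ± 0.29 and the VEGF receptor Kdr at 8.32 ± 0.20. The lymphatic factor Prox1 read 4.97, 4.78 and 4.69 and did not lie above it. Enteric neuron markers did so in 15 of 16 cases, with the RNA-binding protein Elavl4 at 9.51, 9.16 and 8.85, the receptor Ret at 8.04, 7.85 and 7.97 and the transmitter peptide Vip at 9.60 ± 0.26. Among enteric glia markers 7 of 8 passed, with Sox10 at 8.88 ± 0.11, S100b at 7.60 ± 0.18 and the lipid-binding protein Fabp7 at 10.34 ± 0.12, while Gfap read 5.14, 5.57 and 5.26 and did not lie above the mark on Vehicle 1. Vehicle 3 was lowest for 15 of 20 endothelial, 10 of 16 neuronal and 7 of 8 glial members, against 32.6% of all genes. The list means of these 3 lists on Vehicle 3 were 0.14, 0.09 and 0.23 log2 below the mean of the arrays, and whether the pools held different numbers of these cells was not tested.

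Macrophage and monocyte markers also stood high, with a median level of 9.85 log2 at percentile 89.7 and 26 of 27 above the mark. Csf1r, the receptor on which macrophages depend, read 12.31, 12.33 and 12.04. The complement chain C1qa read 11.30, 11.58 and 11.25, and the scavenger receptor Marco 11.15, 11.16 and 11.33. All of these were in the top 5% of genes on all arrays, and Vehicle 3 was the lowest for Csf1r and C1qa and the highest for Marco. The pan-leukocyte phosphatase Ptprc was at 9.73 ± 0.21, Adgre1 (F4/80) at 9.85 ± 0.20, the mannose receptor Mrc1 at 9.25 ± 0.08 and the myeloid factor Spi1 at 7.97 ± 0.16. Cd163, a scavenger receptor of some resident macrophages, was the exception at 3.95 ± 0.18. Other leukocytes had less signal. Of dendritic cell and MHC class II genes 10 of 13 lay above the mark, none of them in the top quartile, with Cd74 at 7.62 ± 0.22 and H2-Aa at 7.16 ± 0.37. Of lymphocyte markers 6 of 16 did, with Cd3e at 6.34 ± 0.20 and Cd79a at 4.62 ± 0.02. Of neutrophil markers 4 of 11 did, with the collagenase Mmp8 highest at 8.10 ± 0.05 and S100a8 at 7.94, 7.26 and 8.34. The granule genes Elane (4.51 ± 0.22), Mpo (4.49 ± 0.11) and Ngp (4.87 ± 0.08) did not.

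Markers of blood and of neighbouring tissues were mostly at the level of the olfactory genes. Red blood cell genes passed the mark in 4 of 12 cases, mast cell markers in 2 of 11, skeletal muscle genes in 3 of 12 and mesothelium markers in 4 of 12. The heme enzyme Alas2 (4.91 ± 0.04), the muscle factors Myod1 (4.47 ± 0.07) and Myog (4.47 ± 0.08), and the fat hormone Adipoq (3.54 ± 0.07) stood below it. The globin genes are near-identical copies, and the value of Hba-a2 (5.51 ± 0.04) is uncertain for that reason. Fabp4 (12.29 ± 0.14) and the lipase Lpl (10.62 ± 0.28), both listed as adipocyte genes, were bright, and both are also expressed by macrophages and endothelium. Cartilage and bone genes passed in 5 of 11 cases, with Sox9 at 6.57 ± 0.31. In the skeletal muscle list 11 of 12 members were lowest on Vehicle 1, as were 27 of 39 olfactory genes, so small differences between arrays at this level run together.

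**Figure D1:**
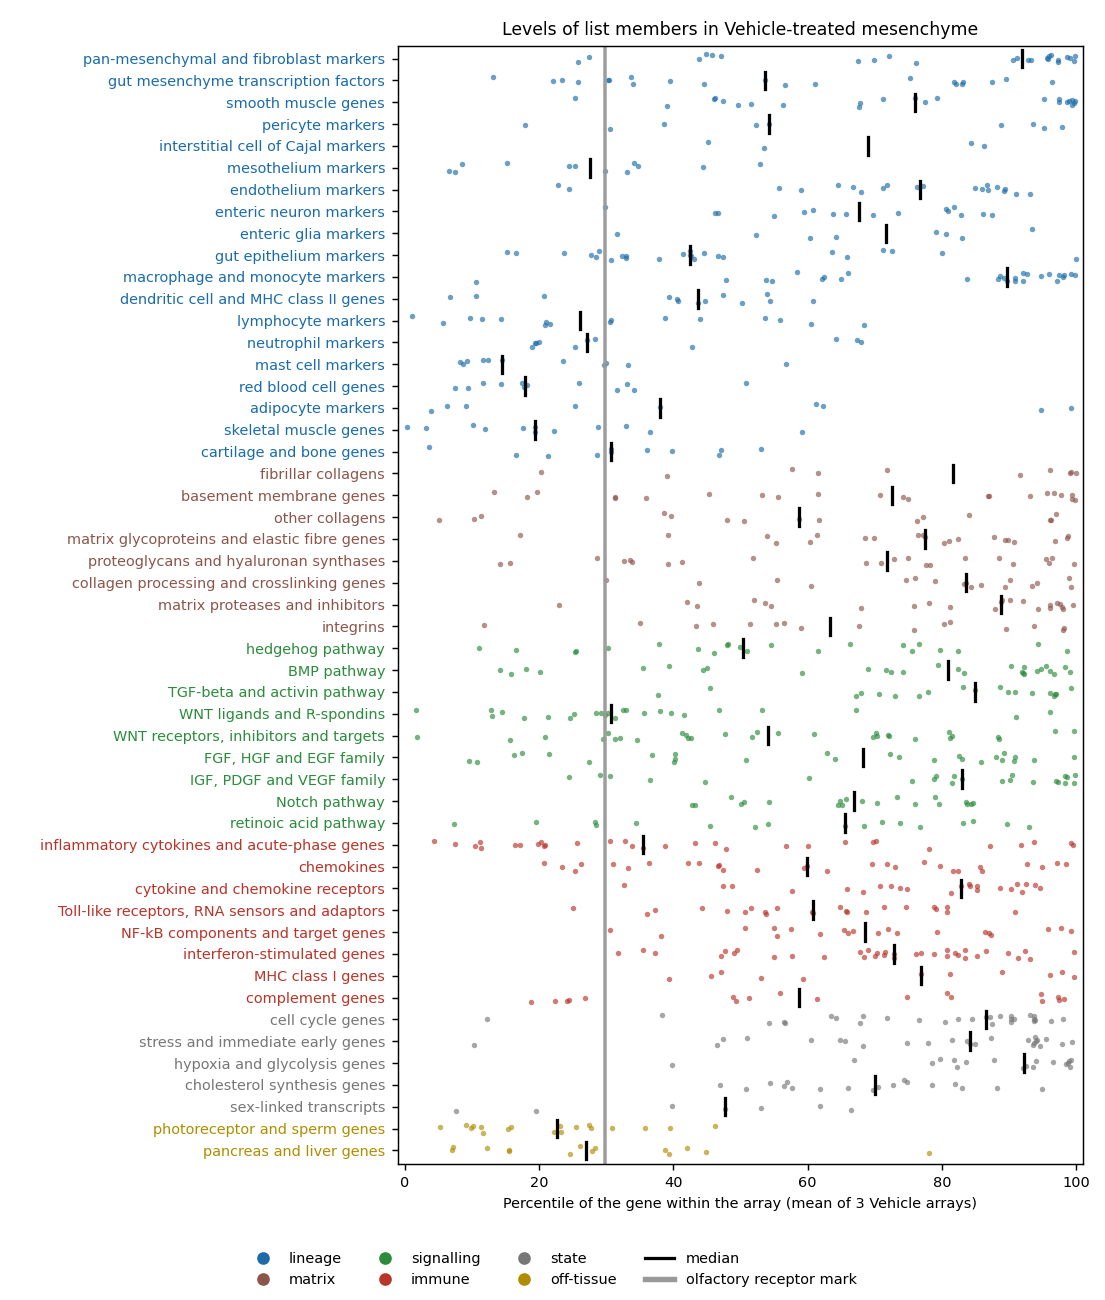
Percentile within the array (horizontal axis, 0 to 100, mean of 3 Vehicle arrays) of each measured member of each gene list, with the list's median as a black bar and the olfactory receptor mark, near the 30th percentile, as a grey line. Medians of the mesenchymal (92.0) and macrophage (89.7) lists lie far to the right of those of mast cell (14.5) and red blood cell (18.0) genes.

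Some markers of gut epithelium, which had been removed, were above the mark and differed between pools. Epcam, the epithelial adhesion molecule, was similar on all arrays at 7.90, 7.72 and 7.83. The keratin Krt8 read 10.62, 9.35 and 7.54, and Cdh1, the epithelial cadherin, 8.28, 6.66 and 4.71. Krt8 was thus 8.48-fold higher on Vehicle 1 than on Vehicle 3. Cdh1 was below the mark on Vehicle 3 and was at least 8.45-fold higher on Vehicle 1, counted from that mark. Cdx2, the transcription factor of intestinal epithelium, was below it on every array at 4.75 ± 0.03, and Vil1, a protein of the brush border, read 5.86, 5.14 and 4.45. Of the 25 markers measured 14 lay above the mark on all arrays and 19 were below the median of all genes.

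**Figure D2:**
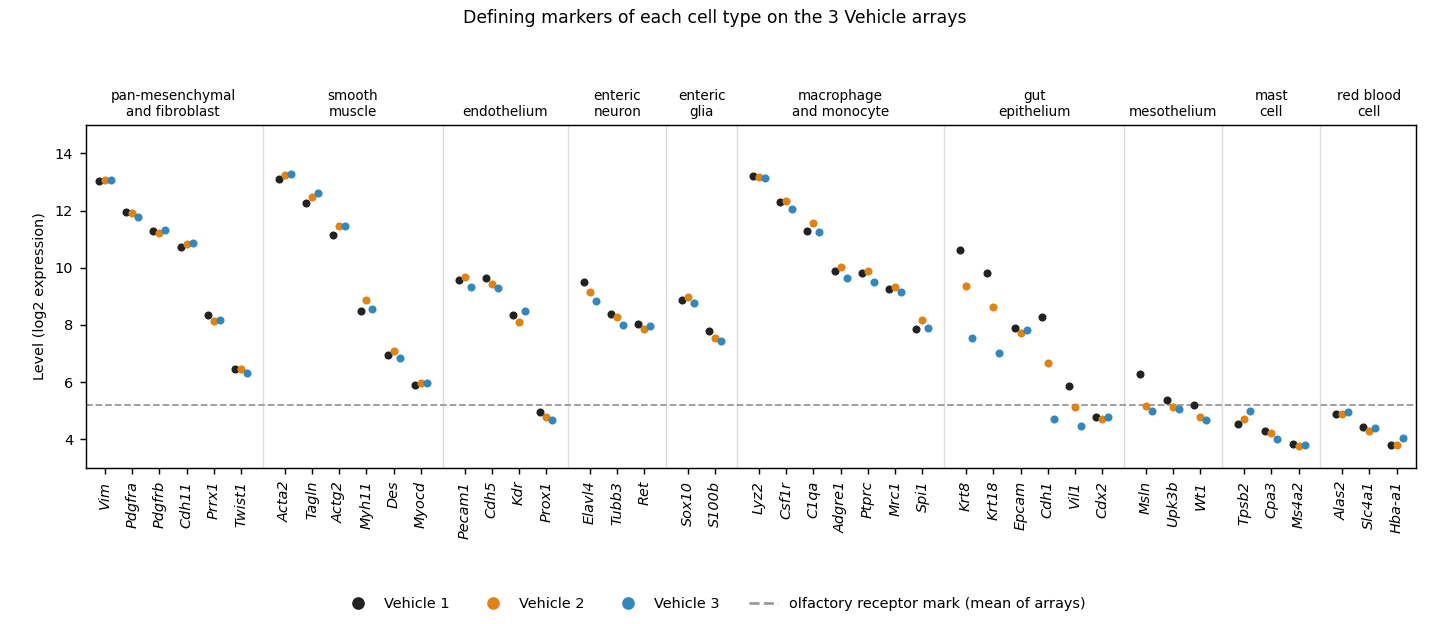
Level in log2 expression (vertical axis) of the defining markers of each cell type, 1 point per Vehicle array, with the mean olfactory receptor mark as a dashed line. The arrays lie within 0.40 log2 for the mesenchymal, smooth muscle, endothelial and macrophage genes shown, spread over 0.66 for the neural gene Elavl4, and part most for Krt8, Krt18, Cdh1, Vil1 and Msln, with Vehicle 1 highest.

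Matrix genes were among the brightest of the arrays. Fibrillar collagens lay above the mark in 9 of 10 cases, with Col3a1 at 13.43, 13.42 and 13.37, Col1a2 at 12.12, 12.30 and 12.19 and Col5a2 at 12.25 ± 0.04. Col1a1, the partner chain of Col1a2, read 10.71, 11.44 and 10.73 and was 1.66-fold higher on Vehicle 2 than on Vehicle 1, while Col1a2 spanned 0.17 log2. Of basement membrane genes 18 of 22 passed, led by Sparc (13.29 ± 0.06), the type IV collagen chain Col4a1 (12.56, 12.46 and 12.46) and the laminin chain Lamb1 (12.36 ± 0.03). Laminin chains made by epithelium were low, Lama3 at 5.32 ± 0.44 and Lamb3, below the mark on every array, at 4.41 ± 0.27. Both were highest on Vehicle 1, as most epithelial markers were, and lowest on Vehicle 2. The hemidesmosomal collagen Col17a1 was not above the mark (3.61 ± 0.10).

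Fibronectin (Fn1, 12.04, 11.94 and 11.88), thrombospondin 1 (Thbs1, 11.89 ± 0.09) and tenascin C (Tnc, 11.13 ± 0.08) led the glycoproteins, of which 20 of 21 passed, with elastin (Eln) lower at 7.60 ± 0.12. Among proteoglycans 19 of 22 passed, with biglycan (Bgn) at 11.02 ± 0.17, versican (Vcan) at 10.76 ± 0.06 and the hyaluronan synthase Has2 at 8.14 ± 0.09. Aspn, a small leucine-rich proteoglycan, had the widest range of the matrix lists after Mmp12, at 8.58, 8.85 and 7.89, lowest on Vehicle 3. Enzymes that fold and crosslink collagen were bright, 16 of 17 above the mark, with the chaperone Serpinh1 at 12.25 ± 0.05 and lysyl oxidase (Lox) at 10.36 ± 0.13. The integrin chains Itgb1 (11.64 ± 0.09) and Itgav (11.60 ± 0.07), receptors for this matrix, were in the top 5%, and Itgb6, an epithelial chain, was below the mark (4.03 ± 0.22).

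Matrix proteases stood at a median percentile of 88.7, with 22 of 23 members of the protease and inhibitor list above the mark. Stromelysin 2 (Mmp10) read 12.49, 12.55 and 12.59 and gelatinase A (Mmp2) 11.70, 11.46 and 11.60. The collagenase Mmp13 read 11.08, 11.18 and 11.48 and stromelysin 1 (Mmp3) 10.74, 10.79 and 11.29, both highest on Vehicle 3. Mmp12, the elastase of macrophages, read 10.26, 10.20 and 11.44, 2.37-fold higher on Vehicle 3 than on Vehicle 2, and was the only member with a range of at least 1 log2. The inhibitors Timp2 (10.93 ± 0.08) and Timp1 (10.15 ± 0.08) were bright as well, and Timp4 was not above the mark (4.71 ± 0.07).

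Without added ligand, the receiving side of the hedgehog pathway was well above the mark, while Ihh and the target genes Gli1 and Hhip were not above it on all arrays. Of 22 pathway genes 17 passed (77.3%), against 68.7% of all genes, and 11 were below the median of all genes. The median level of the list was 6.87 log2, against 6.83 for all genes. The list as a whole deviated by at most 0.01 log2 on any array, with a widest range of 0.43. Gas1, a co-receptor, read 12.01, 11.91 and 11.83. Ptch1, a receptor that is itself a target of the pathway, was high at 9.14 ± 0.10, unlike the targets Gli1 and Hhip. Smo, the signal transducer, was at 8.52 ± 0.07, and the transcription factors Gli3 and Gli2 were at 8.93 ± 0.17 and 8.69 ± 0.04. The co-receptors Boc (7.68 ± 0.04) and Cdon (6.91 ± 0.17) and the inhibitor Sufu (7.99 ± 0.16) also passed. Gli1, a target and amplifier of the pathway, read 5.24, 5.44 and 5.01, and Hhip, a target that binds the ligands, 4.69, 4.84 and 5.09. Ihh was below the mark on every array at 4.31 ± 0.10, and Shh read 5.69, 5.87 and 5.96, in the range of the photoreceptor and sperm genes that passed.

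BMP pathway genes lay above the mark in 24 of 28 cases at a median level of 9.02 log2. The ligands Bmp4 (10.00, 10.13 and 10.25) and Bmp2 (10.59 ± 0.15) were accompanied by the receptors Bmpr2 (10.91 ± 0.06) and Bmpr1a (10.18 ± 0.08). The target genes Id2, Id3 and Id1 stood at 11.72, 11.07 and 10.18 log2. Of the secreted inhibitors, Grem1 was bright (10.38, 10.52 and 10.52), whereas noggin (Nog) was below the mark (4.53 ± 0.17). The TGF-beta and activin list was above the mark in full, 19 of 19, with the matrix protein Tgfbi (12.26 ± 0.13) and the receptor Tgfbr2 (11.09 ± 0.17) high, and the ligands Tgfb1, Tgfb2 and Tgfb3 at 8.45, 8.09 and 8.05. Inhba, which encodes activin A, read 9.57, 9.70 and 10.41, highest on Vehicle 3.

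Among 24 WNT ligands, R-spondins and secretion factors 12 lay above the mark and 20 were below the median of all genes. Wnt5a, a ligand of gut elongation, was the exception at 10.84, 10.84 and 11.12, with Wls, the carrier needed for WNT secretion, at 10.00 ± 0.03. The R-spondin Rspo3, which amplifies WNT signals in crypts, was at 8.05 ± 0.17, Rspo2 at 5.99 ± 0.19 and Rspo1 at 5.09 ± 0.09, the last not above the mark. Wnt2b, a ligand of stromal cells, also did not pass (4.82 ± 0.09). Receptors and inhibitors passed in 24 of 30 cases, with beta-catenin (Ctnnb1) at 12.79 ± 0.08, Fzd1 at 11.14 ± 0.10, and the inhibitors Sfrp1 and Sfrp2 at 9.71 ± 0.26 and 9.68 ± 0.11. Axin2, a transcriptional target of the pathway, was near the mark (5.61, 5.60 and 5.49).

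Growth factor genes of several families were high. Epiregulin (Ereg), a ligand of the EGF receptor, read 12.84, 12.81 and 12.71, at percentile 99.6. Hepatocyte growth factor (Hgf, 9.99 ± 0.18), Fgf7 (9.67 ± 0.20) and neuregulin 1 (Nrg1, 9.78 ± 0.06) followed, while Fgf10 was at 5.50, 5.96 and 5.76 and Egf below the mark (3.97 ± 0.20). In the IGF, PDGF and VEGF family, in which 20 of 23 passed, Igfbp5 (13.31 ± 0.01) and Igfbp4 (12.95 ± 0.02) were the brightest. Igf2, the fetal growth factor, read 11.38, 11.17 and 11.05 and Igf1 9.80, 9.91 and 10.04. Kitl, the ligand of Kit, was at 9.89 ± 0.13, and Vegfa, which is also induced by low oxygen, read 10.02, 9.72 and 9.53, highest on Vehicle 1. All 20 Notch pathway genes passed, none of them in the top decile, with Notch2 at 9.33 ± 0.04, Jag1 at 9.26 ± 0.15 and Hes1 at 8.64 ± 0.07. In the retinoic acid pathway the synthesizing enzymes Rdh10 (10.29 ± 0.02), Aldh1a3 (9.83 ± 0.09) and Aldh1a2 (9.55, 9.38 and 9.05) were high, and the binding proteins Crabp1 (3.76 ± 0.05) and Crabp2 (4.49 ± 0.09) were below the mark.

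Inflammatory genes held both very bright members and members at the level of the olfactory genes. Of 31 cytokine and acute-phase genes 17 lay above the mark and 20 were below the median of all genes. Saa3, an acute-phase protein, read 12.84, 12.54 and 12.45, and Ptgs2, the inducible cyclooxygenase, 12.25, 12.28 and 12.52. Il11 (10.42 ± 0.24) and the siderophore-binding Lcn2 (10.14 ± 0.35) were in the top decile too. Il1b was at 7.94 ± 0.07, Il6 read 7.69, 7.27 and 7.08, and Tnf was at 6.66 ± 0.03, near the middle of all genes. The T cell cytokines Il4 (3.77 ± 0.05), Il17a (4.56 ± 0.05) and Ifng (3.56 ± 0.04), and Il10 (3.99 ± 0.06), did not pass. Csf1, the growth factor of macrophages, read 9.28, 9.46 and 10.06, and the interleukin-1 antagonist Il1rn 8.46, 8.60 and 9.42. Both were highest on Vehicle 3.

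Chemokines passed in 25 of 29 cases. Those that attract monocytes and neutrophils were the brightest, with Ccl6 at 11.77, 11.77 and 11.76, Ccl9 at 11.23 ± 0.11, Cxcl3 at 10.64 ± 0.27 and Ccl2 at 9.98, 10.18 and 10.58. Cxcl12, a stromal chemokine, was at 8.93 ± 0.19. All 23 cytokine and chemokine receptors passed. Highest were Tnfrsf1a (10.56 ± 0.07), Il1r1 (10.44 ± 0.09), the oncostatin receptor Osmr (10.21 ± 0.17), the chemokine receptor Ackr3 (10.15 ± 0.30) and the shared signal chain Il6st (10.03 ± 0.11). Toll-like receptors and sensors passed in 22 of 23 cases, with Cd14 at 10.00 ± 0.21, Tlr4 at 8.33 ± 0.05 and Tlr2 at 7.89 ± 0.12. In the NF-kB list 19 of 20 passed, with the inhibitor and target Nfkbia at 12.33, 12.27 and 12.27 and the target Sod2 at 11.51 ± 0.06, and the list deviated by at most 0.07 log2 on any array. Complement genes of macrophages and of fluid-phase control were bright, with Serping1, the C1 inhibitor, at 10.62 ± 0.08, while the terminal components Hc (4.67 ± 0.09) and C9 (4.44 ± 0.15) were below the mark.

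Genes of proliferation and of cell stress stood high. Their median range was 0.18 log2 for cell cycle genes and 0.20 for stress and immediate early genes, against 0.16 for all genes. For hypoxia and glycolysis genes it was 0.37 log2. Cell cycle genes passed in 28 of 29 cases at a median percentile of 86.5, with Mki67 at 10.31 ± 0.12, Top2a at 9.90 ± 0.03 and Cdk1 at 9.60 ± 0.10, and the inhibitor Cdkn2a was below the mark (4.05 ± 0.07). Immediate early genes Fos (10.39, 10.45 and 10.33) and Egr1 (10.42, 10.12 and 10.25) were in the top decile. Hypoxia and glycolysis genes stood at a median percentile of 92.3, with Pgk1 at 12.34 ± 0.04 and Ldha at 12.01 ± 0.05. Several members of that list stood highest on Vehicle 1 and lowest on Vehicle 3. Egln3, an oxygen sensor, read 9.51, 9.21 and 8.59, the mitophagy receptor Bnip3 10.53, 10.16 and 9.80, and the carbonic anhydrase Car9 6.44, 5.99 and 5.61. Other genes that low oxygen induces did not follow this order, with the peptide Adm at 10.39, 10.31 and 10.64, highest on Vehicle 3, and the glucose transporter Slc2a1 at 10.47, 10.06 and 10.12, lowest on Vehicle 2. Of the 18 members 11 (61.1%) stood in the order Vehicle 1, 2, 3 from high to low, against 20.7% of all genes, and the mean deviations were 0.19, 0.00 and -0.19 log2.

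For most genes the 3 pools lay close together. The median gene had a range, the highest minus the lowest array, of 0.16 log2 (1.12-fold), and for 95% of genes it was below 0.47. A range of at least 1 log2, or 2-fold, was found for 146 genes (0.803% of 18193), of which 28 reached 2 log2 and 7 reached 3 log2. Vehicle 3 was the lowest array for 132 of the 146 (90.4%), Vehicle 2 for 10 and Vehicle 1 for 4. The highest was Vehicle 1 for 104, Vehicle 2 for 37 and Vehicle 3 for 5. With the genes divided by mean level into 4 bins of like size, such a range was found for 0.176% of the lowest bin, 1.43% and 0.967% of the middle bins and 0.638% of the highest. At least 1 array was below the mark for 49 of the 146, and for those the range may be understated, since low values are compressed.

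Taken pairwise, Vehicle 1 was at least 1 log2 above Vehicle 3 for 126 genes (0.693%) and below it for 5 (0.0275%). Vehicle 2 was above Vehicle 3 for 80 (0.44%) and below it for 5 (0.0275%). Vehicle 1 and 2 were the closest, the former above for 30 genes (0.165%) and below for 3 (0.0165%), which were the Y-linked Eif2s3y, Kdm5d and Uty.

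**Figure D3:**
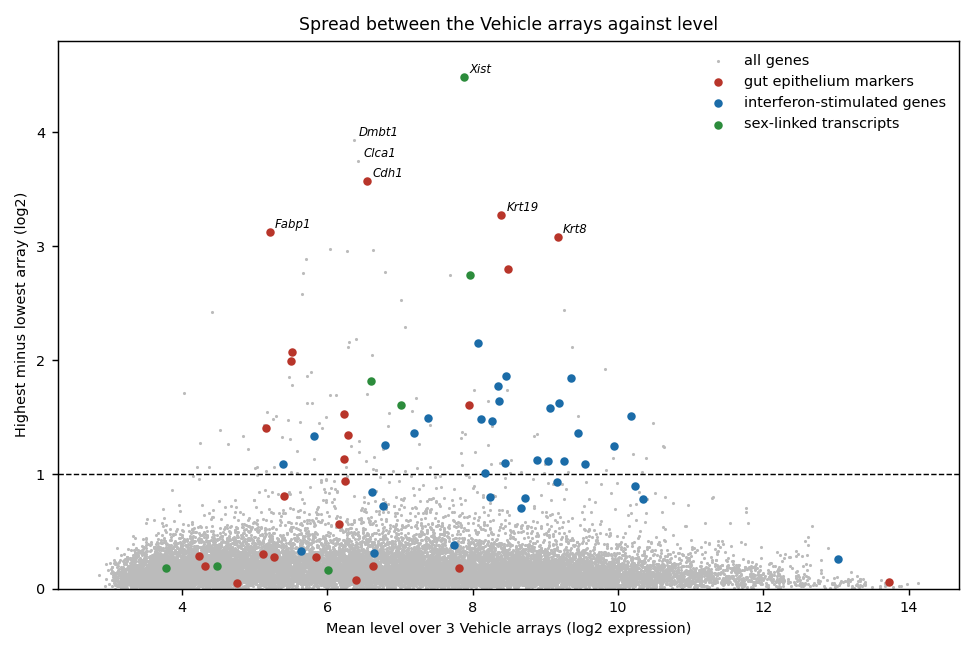
Range over the 3 Vehicle arrays (vertical axis, highest minus lowest, log2) against mean level (horizontal axis, log2 expression) for all 18193 genes, with markers of gut epithelium in red, interferon-stimulated genes in blue and sex-linked transcripts in green. The 7 genes past 3 log2 are named, and most coloured points lie above the dashed line at 1 log2, as 0.803% of all genes do.

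The lists accounted for 52 of the 146 genes, 23 of them interferon-stimulated genes, 12 epithelial markers and 4 sex-linked transcripts. Many lists had no such gene, among them mesenchymal markers, smooth muscle, endothelium, enteric neurons and glia, collagens, cell cycle and all of the signalling lists. At the share of 0.803% of all genes, a list of this length would mostly hold none, so this does not set these lists apart. The mean deviation of the list on the arrays was 0.61, -0.07 and -0.54 log2 for epithelial markers and 0.36, 0.38 and -0.74 for interferon-stimulated genes. Next came MHC class I genes (0.20, 0.22 and -0.43) and mesothelium markers (0.33, -0.08 and -0.25).

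**Figure D4:**
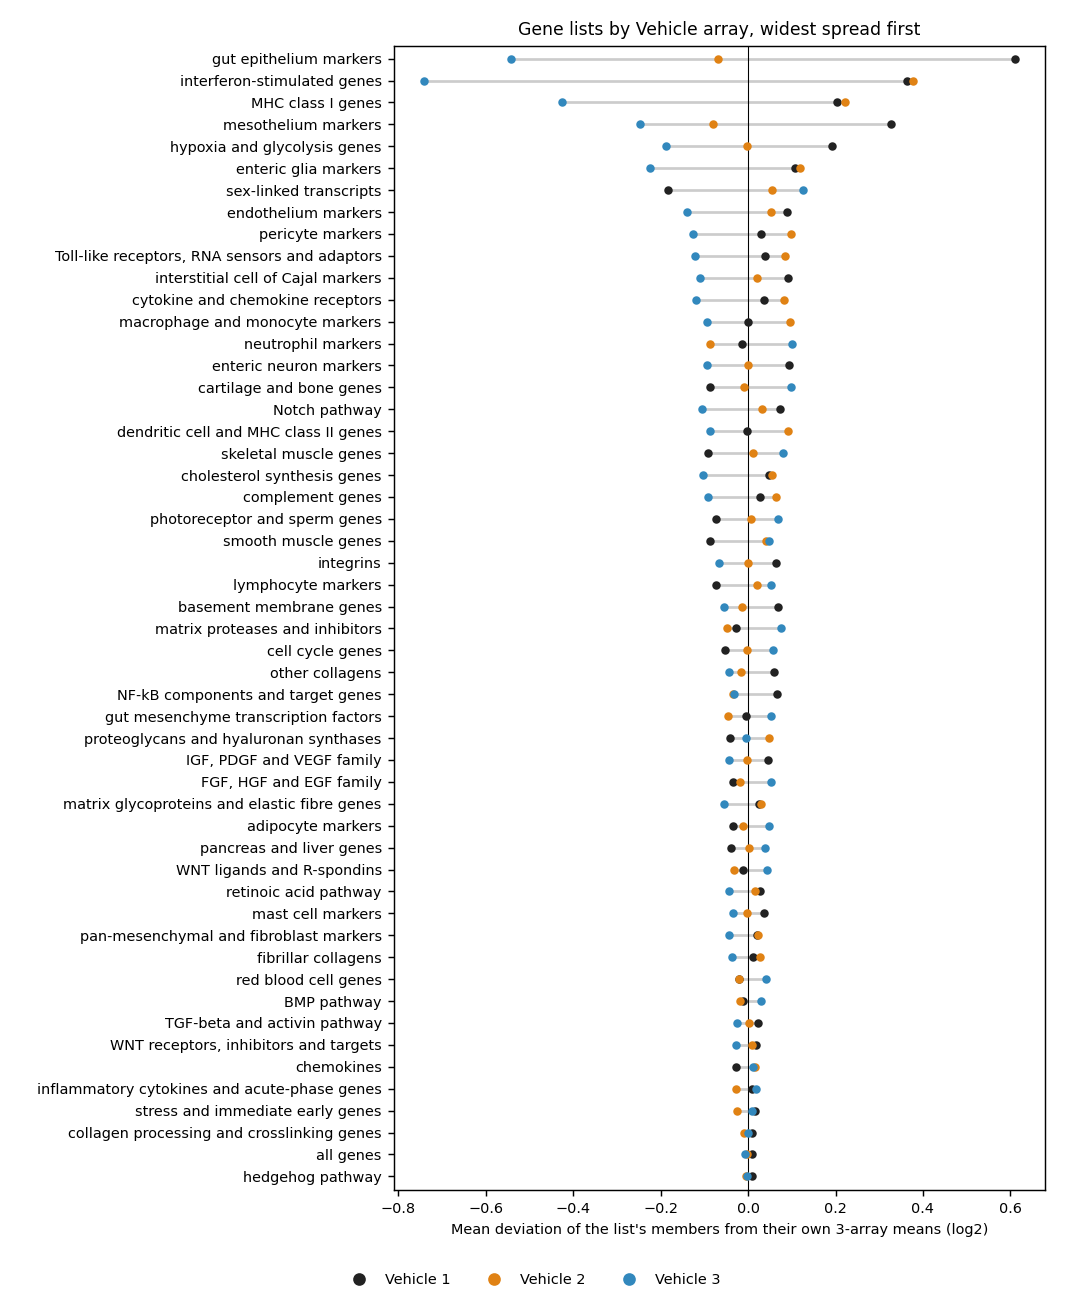
Mean deviation of each list's members from their own means over the 3 arrays (horizontal axis, log2), 1 point per Vehicle array, with lists in order of their spread. Epithelial markers lie at 0.61, -0.07 and -0.54 and interferon-stimulated genes at 0.36, 0.38 and -0.74, while the hedgehog list, at the bottom, lies within 0.01 of 0.

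Of the 12 epithelial genes 10 were highest on Vehicle 1 and lowest on Vehicle 3. With the lowest array set to 0 and the highest to 1, the middle array was at a median of 0.52. Besides Krt8 and Cdh1, the keratins Krt18 (8.48 ± 1.41) and Krt19 (9.90, 8.63 and 6.63), the trefoil peptide of goblet cells Tff3 (8.68, 8.10 and 7.07) and the tight junction gene Cldn7 (7.03, 6.17 and 5.49) followed this order. Some genes of absorptive enterocytes lay above the mark on Vehicle 1 alone. Fabp1, which binds fatty acids, read 7.22, 4.30 and 4.09, Fabp2 6.78, 4.78 and 4.94, and the apolipoprotein Apoa4 6.89, 4.82 and 4.82, and Vehicle 2 and 3 were below the mark for all 3. Another probe set of Apoa4 read 6.10, 5.26 and 4.96, with Vehicle 2 just above the mark, and Krt20, a keratin of mature enterocytes, read 6.92, 6.35 and 5.58. Cldn3 (6.62 ± 0.10), the endocrine granule gene Chga (6.39 ± 0.04), the stem cell receptor Lgr5 (5.12 ± 0.16) and Muc2 (5.26 ± 0.14) had ranges of at most 0.31 log2.

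Of the 94 varying genes in no list 68 (72.3%) read highest on Vehicle 1 and lowest on Vehicle 3. Among all 146 varying genes, which include these 94, it was 97 (66.4%). Of all genes measured, 20.7% stood in the order Vehicle 1, 2, 3 from high to low. Vehicle 2 did not take 1 place among the 68. On the scale from the lowest to the highest array it was at 0.8 or more for 20 of them, between 0.2 and 0.8 for 44 and under 0.2 for 4. The same counts were 0, 9 and 1 for the 10 epithelial genes, and all 12 interferon-stimulated genes with this order were at 0.8 or more. Dmbt1, a mucosal glycoprotein of epithelium, read 8.53, 5.96 and 4.59, at least 10.0-fold higher on Vehicle 1 than the mark on Vehicle 3, below which it lay there. The antimicrobial lectin Reg3b read 8.23, 6.41 and 5.27, the desmosome component Dsp 7.19, 5.62 and 4.31, and the epithelial galectin Lgals4 8.91, 7.99 and 6.17. Clu, a secreted chaperone, read 10.56, 9.08 and 8.11 and its 3 other probe sets gave the same order with ranges of 2.56 to 3.31 log2. Clca1, a product of goblet cells, instead read 7.84, 7.33 and 4.09, with Vehicle 2 near Vehicle 1. Tff1, a trefoil peptide best known from stomach, was bright on all arrays at 10.65, 10.10 and 8.72.

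Most markers of mesothelium, a tissue that shares Krt7 with epithelium, were highest on Vehicle 1 as well. Krt7, present in both, read 8.14, 7.27 and 5.61, and Msln, the mesothelial surface protein, 6.29, 5.18 and 4.98. The mesothelial factor Wt1 read 5.20, 4.77 and 4.67 and Upk3b 5.39, 5.12 and 5.08. Vehicle 1 was highest for 10 of 12 mesothelium markers, against 37.3% of all genes. The list's mean level was 5.36, 4.96 and 4.79 log2, against 7.11, 6.43 and 5.96 for epithelial markers, and 8 of its 12 members did not lie above the mark on all arrays. Which cells these transcripts came from and the part of either cell type in the difference was not tested. The hypoxia genes above, Gata6 and Lama3 were highest on Vehicle 1 as well, and whether they move with the epithelial signal was not tested.

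**Figure D5:**
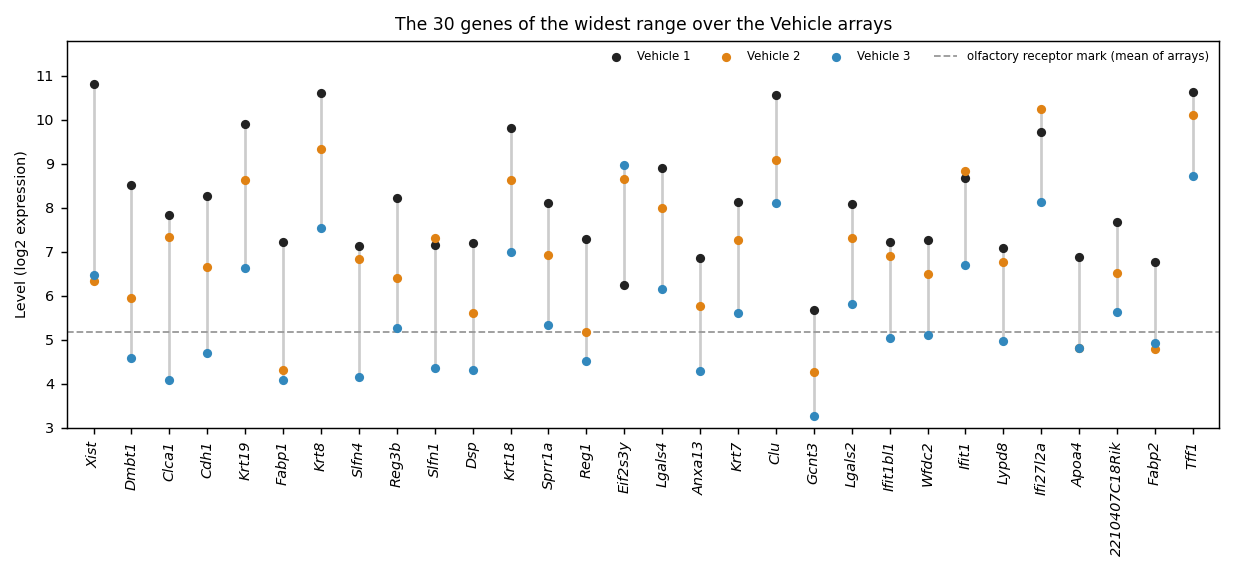
Level in log2 expression (vertical axis) on each Vehicle array of the 30 genes with the widest range, widest first, with the mean olfactory receptor mark as a dashed line. Xist is high on Vehicle 1 alone and Eif2s3y low there alone, Slfn1, Ifit1 and Ifi27l2a are low on Vehicle 3 alone, and epithelial genes such as Krt8 and Cdh1 form 3 steps.

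Interferon-stimulated genes were bright on Vehicle 1 and 2 and lower on Vehicle 3. Ifit1, which binds foreign RNA, read 8.68, 8.85 and 6.70, a 4.44-fold range. Usp18, a brake on interferon receptor signalling, read 9.06, 9.09 and 7.23, and Irf7, the factor that sustains interferon production, 8.87, 8.93 and 7.28. Vehicle 3 was lowest for all 35 members and the range reached 1 log2 for 23 of them (65.7%), whereas Vehicle 1 and 2 differed by at most 0.30 log2 for any member. On the scale from lowest to highest array the middle one was at a median of 0.98 for the 23. Even on Vehicle 3 most members lay above the mark, 33 of 35 on all arrays, the exceptions being the GTPase Mx1 (6.35, 6.09 and 5.01) and the synthetase Oas3 (5.76, 5.73 and 4.67), each below it on Vehicle 3 only.

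Further antiviral genes gave the same picture. Ifit3 read 9.98, 9.96 and 8.13, the viperin gene Rsad2 10.36, 10.34 and 9.11, the transcription factor Stat2 7.66, 7.63 and 6.29, the guanylate-binding protein Gbp3 8.79, 8.70 and 7.32, and the RNA sensors Ifih1 and Ddx58 9.41, 9.40 and 8.30 and 9.26, 9.27 and 8.15. Smaller ranges were found for Irf9 (0.70 log2), which partners Stat2, and for the membrane protein Ifitm3 (13.12, 13.10 and 12.86). Of genes in no list, Slfn1 read 7.17, 7.31 and 4.35, Slfn4 7.13, 6.84 and 4.15 and Ifi27l2a 9.72, 10.24 and 8.13.

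Antigen presentation and some chemokines moved with them. All 11 MHC class I genes measured were lowest on Vehicle 3, of which 2, Tap1 and Psmb8, also stand in the interferon list and 9 do not, with B2m at 12.91, 13.06 and 12.71, H2-K1 at 11.03, 11.15 and 10.60, the proteasome subunit Psmb9 at 7.37, 7.43 and 6.39 and the regulator Nlrc5 at 6.65, 6.15 and 5.15. The H2 genes resemble each other in sequence, and their separate values are uncertain. Ccl5 read 8.64, 8.63 and 7.38 and Ccl12 stood at 6.63 ± 0.58, both lowest on Vehicle 3, while Cxcl10, often induced by interferon, read 8.57, 8.46 and 8.05, a range of 0.52 log2. Fcgr1, an immunoglobulin receptor of macrophages, read 10.06, 10.24 and 9.20 and was the only one of 27 macrophage markers with a range of at least 1 log2. Vehicle 3 was lowest for 18 of the 27 (66.7%), against 32.6% of all genes. The macrophage list as a whole deviated by 0.00, 0.10 and -0.09 log2, and its part in the interferon pattern was not tested.

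The interferon transcripts among the listed genes were low on every array. Ifnb1 read 4.59, 4.53 and 4.48 and Ifng 3.52, 3.58 and 3.58, both below the mark. The receptor chains were similar on the arrays, Ifnar1 at 8.57, 8.46 and 8.44 and Ifnar2 at 9.20, 9.27 and 9.07. Ifngr1 was at 9.38 ± 0.16.

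Many interferon-stimulated genes carry, in their promoters, a short sequence known as the interferon-stimulated response element. RefSeq promoters of GRCm38.p6, 250 bases before to 50 after the start of the gene, were searched on both strands for TTTCNNTTTC, the core of this element, and matches could overlap. A gene with several promoters in the table counted as holding a match where any of them did. Of the 35 interferon-stimulated genes 26 were in the promoter table, and 15 of these (57.7%) held a match, against 3.99% of all 27018 genes of the table. Among those with a range of at least 1 log2 it was 12 of 18, and among the rest 3 of 8. Of the 25 epithelial markers 19 were in the table and 2 held a match. The promoters of Ifit1 (chr19:34640639-34640938, + strand), Ifit3 (chr19:34583279-34583578, + strand) and Gbp3 (chr3:142559794-142560093, + strand, of its 2 in the table one with the most matches) are printed because these were the members with the widest range among those with a match. They are written 5′ to 3′ with the matches in capitals, and each holds 2, which in Gbp3 overlap.
Ifit1: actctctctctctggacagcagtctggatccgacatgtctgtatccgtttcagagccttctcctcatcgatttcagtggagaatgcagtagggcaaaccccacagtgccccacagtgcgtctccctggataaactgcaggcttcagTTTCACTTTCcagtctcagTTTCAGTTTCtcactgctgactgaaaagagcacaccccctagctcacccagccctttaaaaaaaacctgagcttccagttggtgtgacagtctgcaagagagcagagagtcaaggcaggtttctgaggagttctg
Ifit3: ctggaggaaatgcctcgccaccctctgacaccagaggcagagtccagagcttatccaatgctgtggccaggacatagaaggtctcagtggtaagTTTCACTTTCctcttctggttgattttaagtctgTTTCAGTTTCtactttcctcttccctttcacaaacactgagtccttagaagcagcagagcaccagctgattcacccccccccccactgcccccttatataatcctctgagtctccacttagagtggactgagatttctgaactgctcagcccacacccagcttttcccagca
Gbp3: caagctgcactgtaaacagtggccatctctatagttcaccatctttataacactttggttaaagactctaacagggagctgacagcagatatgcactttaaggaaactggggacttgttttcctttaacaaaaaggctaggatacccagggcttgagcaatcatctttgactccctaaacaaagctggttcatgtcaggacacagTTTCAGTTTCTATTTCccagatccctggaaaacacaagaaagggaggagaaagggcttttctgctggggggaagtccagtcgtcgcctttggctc
The first match began 104 bases before the start of Ifit1, 156 before that of Ifit3 and 45 before that of Gbp3. A match in these letters is a description of the promoter, not a measured binding site. Of all 146 varying genes 104 were in the table and 25 of them (24.0%) held a match. Among these 104 are the 18 interferon-stimulated genes counted above, 12 of them with a match.

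Sex-linked transcripts separated Vehicle 1 from the other pools. Xist spanned 4.48 log2, a 22.4-fold range and the widest of all genes. Its level was similar on Vehicle 2 and 3, and another probe set of Xist read 11.58, 3.43 and 3.28, a range of 8.30 log2. The Y-linked translation factor Eif2s3y read 6.24, 8.66 and 8.98, the Y-linked demethylases Kdm5d 5.42, 7.24 and 7.14 and Uty 5.98, 7.59 and 7.49. By these probe sets all 3 were lowest on Vehicle 1 yet above the mark there. Their other probe sets were split on this point. Another probe set of Kdm5d read 4.36 on Vehicle 1, below the mark, and was above the mark on Vehicle 2 and 3. The same held for another of Uty, while further Uty probe sets read 5.61 and 5.89 on Vehicle 1, above the mark. The remaining probe sets of Eif2s3y and Kdm5d were below the mark on every array. The other Y-linked genes measured, Sry (6.01 ± 0.09), Usp9y (4.49 ± 0.11) and Zfy2 (3.78 ± 0.10), had ranges of at most 0.20 log2. The number of male and female embryos in each pool is not given in the sources used here.

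Only 5 of the 146 genes were highest on Vehicle 3, and of these Slc15a2 and Erdr1 are named for that count, after their values were seen. Mmp12 and Eif2s3y were given above. Slc15a2, a peptide transporter, read 4.66, 5.26 and 6.51. Erdr1 read 10.70, 9.64 and 11.09 and S100a8, a calcium-binding protein of neutrophils and activated myeloid cells, 7.94, 7.26 and 8.34, both lowest on Vehicle 2. Another probe set of Erdr1, above the mark on all arrays, did not give this order. Its range was 0.11 log2, with Vehicle 2 highest and Vehicle 1 lowest.

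Of the 146 genes 63 had other probe sets, 100 in all, and these offer a second reading from the same RNA. The same array was lowest for 71 of the 100 and highest for 61. Restricted to the 38 that lay above the mark, the lowest array was the same for 36 and the highest for 27.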

How the data were processed

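Expression was measured on 9 Affymetrix mouse arrays, 3 for each of 3 treatments, and the 3 Vehicle arrays were used here. The values deposited by the authors are log2 expression for 45101 probe sets. They came from GCOS and RMA, per the submitters' processing notes, with no version given in the sources used here. RMA removes background, brings the arrays to 1 distribution and combines the probes of a set, so it hides any change shared by all genes and compresses low levels. The log2 scale was inferred from the range of the values. No batch or scan date was used here.

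Gene names came from the annotation of the platform, in which 34945 probe sets had 1 symbol, 932 several and 9160 none, and 64 were controls. RefSeq GRCm38.p6 held 34741 of the Entrez identifiers and changed 0 symbols. Each of 18193 genes, 9010 of which had several single-symbol probe sets, was represented by that of the highest Vehicle mean. Percentiles are among these genes on each array.

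The 51 gene lists, of which 937 of 1014 genes were measured (8 through a synonym), the range threshold, the mark and the members were chosen with earlier results of these data known. Named by rule were defining genes of the lists, each list's 3 brightest members and its widest range, the 20 brightest genes outside ribosomal proteins, and the 30 widest ranges. Other members named illustrate their list, with values already known when they were picked. No test was made, since 1 group of 3 pools allows none of a difference between conditions. Alternatives were other choices of probe set, other normalizations, other marks and thresholds, and leaving out each array. Computations used Python 3.11.15 with pandas 2.3.3 and numpy 2.4.6 and were tested on simulated data.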

Additional observations from a re-analysis of the deposited data

How the results depend on the processing

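No paired analysis was possible because the report holds 1 group and makes no test. The 146 genes with a range of at least 1 log2 became 97 when only genes above the olfactory receptor mark were kept and 469 at a range of 1.5-fold. Leaving out 1 array gave 34 to 132 genes, with 83 without Vehicle 1, 132 without Vehicle 2 and 34 without Vehicle 3. A pair of arrays can span no more than 3 do, so these counts drop by construction. In the same way the 52 list members became 13 to 47, the 23 interferon-stimulated genes 0 to 22, with 0 without Vehicle 3, the 12 epithelial markers 5 to 12 and the 4 sex-linked transcripts 0 to 4, with 0 without Vehicle 1. With the other choices of probe set or normalization 129 to 149 genes had such a range, and each setting shared at least 79.5% of the 146. Which members pass the mark depends on the mark: at the 99th percentile of the olfactory genes 10 of 51 lists moved by over 1.5 times, and at the median of all genes 14 did. Averaging all probe sets of a gene moved the mean level of 188 of 363 named genes by more than 1 SD, such as that of Acta2 by -5.11 log2, and quantile normalization moved 0. A level is thus that of 1 probe set.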

Other observations

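Among the 10092 probe sets with no symbol or several, 35 had a range of at least 1 log2 over the Vehicle arrays. Of these, 24 were lowest on Vehicle 3, and 21 had several symbols.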
